A study of Homo sapiens with 6 samples.

Results

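The mitochondrial ribosomal proteins build the ribosome inside mitochondria and are encoded in the nucleus under the symbols MRPL for the large subunit and MRPS for the small subunit. Members were taken as every gene symbol in the deposited transcriptome that starts with MRPL or MRPS followed by a number, which gave 78 of 19223 symbols, 49 of them MRPL and 29 MRPS. LoVo, the source of the RNA, is an established human cell line of a colorectal adenocarcinoma. The 3 Control libraries came from LoVo cells without DCC-2036, and the 3 DCC-2036 libraries came from LoVo cells given 2.5 μM DCC-2036 (rebastinib), a tyrosine kinase inhibitor, for 48 h according to the labels. A figure legend of the study gives a shorter time. All libraries came from this 1 line, and the labels do not say whether the 3 libraries of a group were separate cultures, so that p-values measure the spread between these libraries. The values were deposited after adjustment for depth, so the reads behind them are unknown. They are not divided by transcript length, and levels of different genes are therefore not compared.

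The mitochondrial ribosome translates the few messenger RNAs of mitochondrial DNA, and its products are inserted into the inner membrane as core subunits of the respiratory chain. Its RNA is transcribed in the mitochondrion, whereas its proteins are made in the cytosol and imported, so an assembled ribosome draws on both genomes. Compared with bacterial ribosomes it carries less RNA and more protein, including many proteins found only in mitochondria.

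Column totals were 38997229 to 40587145 for Control libraries and 43279603 to 48023306 for DCC-2036 libraries. Of 11 colon epithelium markers 7 passed the filter, among them KRT8, KRT18, KRT19 and EPCAM (4524 to 5961), whereas CDX1 was listed at 0 and CDH17, VIL1 and LGALS4 stayed under 8. Of 11 leukocyte, fibroblast and endothelial markers 3 passed. PTPRC was listed at 0 in all libraries, CD68 lay between 205 and 280, and COL1A1 between 353 and 520. No gene encoded in mitochondrial DNA is in the table.

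DCC-2036 moved individual mitoribosomal transcripts in both directions, by as much as a fall to 24.2% of Control and a rise to 201% of Control, while the middle of the family stayed close to that of all genes. All 78 members passed the filter on low values (10 or more in 3 or more of the 6 libraries) and entered the test. Transcripts of 9 members rose and those of 19 fell at an adjusted p under 0.01 (limma, Benjamini-Hochberg over 12725 genes). These are 11.5% and 24.4% of members, against a background of 19.2% of all tested genes called higher and 22.7% called lower, 41.9% together. The remaining 50 members were not called. The libraries of the groups did not overlap for 55 members, 20 with all DCC-2036 values above all Control values and 35 with all below, against 32.9% and 38.1% of all tested genes, 71.1% together. With the libraries scaled to equal totals, which moves the median of all genes from −0.09 to −0.29, the split became 5 higher and 32 lower, against 13.1% and 27% of all genes tested in that scaling. Without Control replicate 1, 2 or 3, or without DCC-2036 replicate 2, the count called higher was 2 each time, and the count called lower was 14, 11, 10 and 12. The shares of all genes dropped as well in these fits, to 8.41%, 7.97%, 7.89% and 7.39% called higher and 12.7%, 12.1%, 12.1% and 13.6% called lower.

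The median log2 fold change was −0.08 over the 78 members and −0.09 over all tested genes. The median of the members was −0.14 without Control replicate 1 and −0.04 without Control replicate 2. The spread among members was narrower than among all genes, with an SD of the log2 fold changes of 0.71 against 0.96. The filter admits genes with values near 10, whereas no member value lay below 121. A narrow spread was not particular to this family. In the groups compared below, the SD was 0.30 for cytosolic ribosomal protein symbols and 0.73 for NDUF symbols of complex I. Without NDUFA4, NDUFA4L2 and a readthrough gene the latter was 0.54. A change of 1 or more in either direction on the log2 scale was seen in 9 members, 11.5%, against 26.9% of all tested genes, and all 9 were falls.

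**Figure D1:**
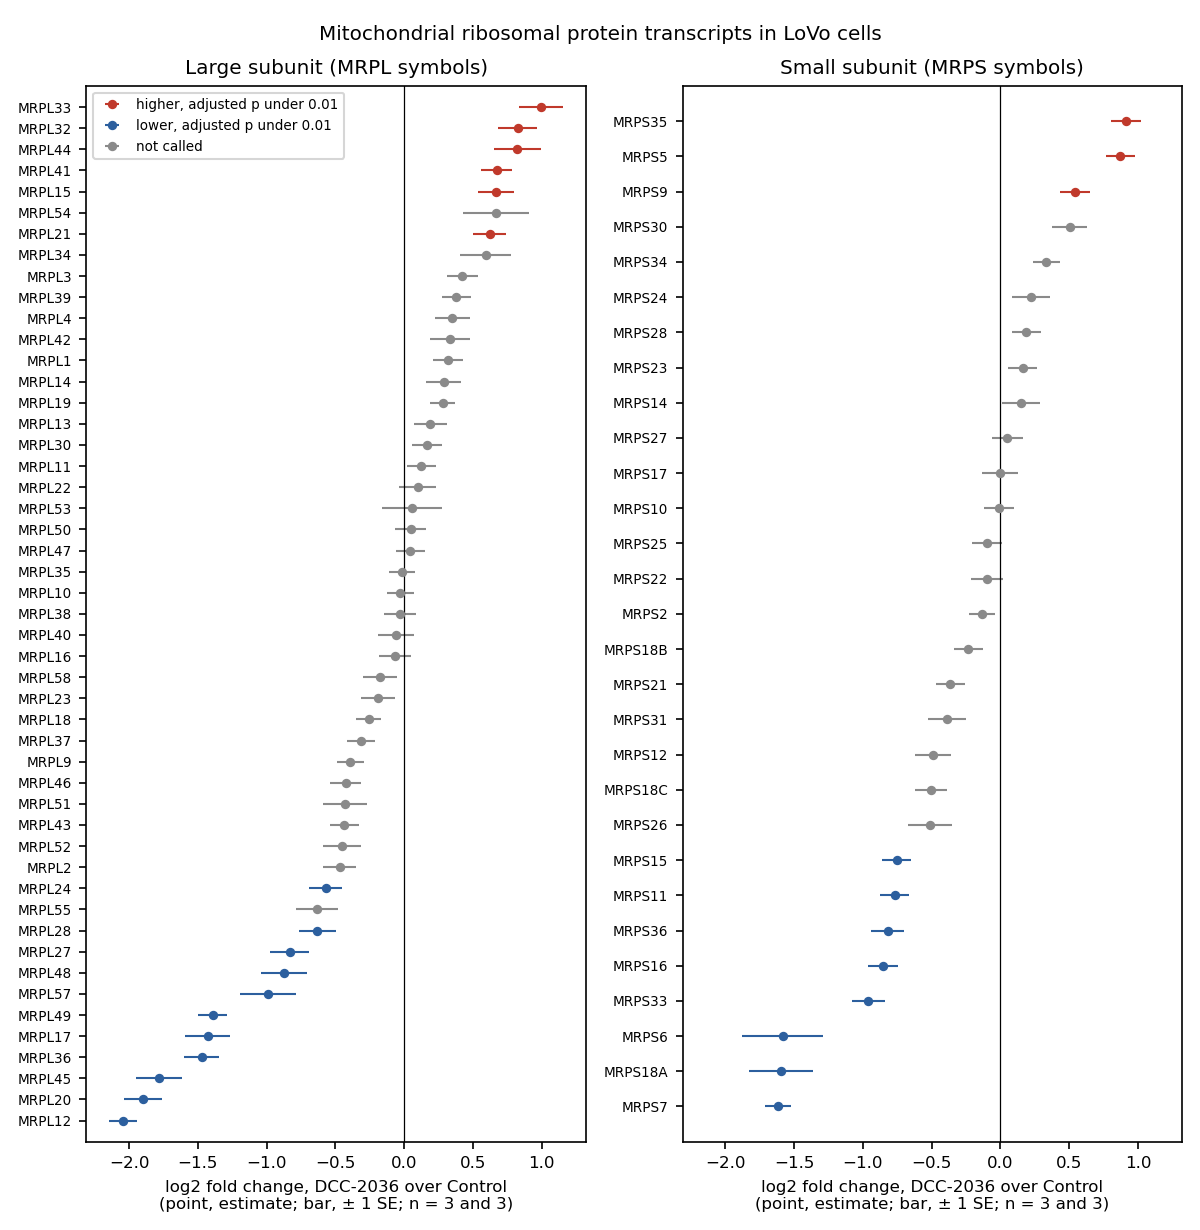
The log2 fold change of DCC-2036 over Control is on the x axis for each of the 78 members, with MRPL symbols on the left and MRPS symbols on the right, and bars give ± 1 SE. Members run from MRPL12 at −2.04 to MRPL33 at 0.99, with no value between MRPL49 at −1.39 and MRPL57 at −0.99, and the steepest falls lie farther from 0 than the steepest rises in both panels.

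The stalk of the large subunit, which recruits translation factors, held the member with the deepest fall. MRPL12, the stalk protein that also binds the mitochondrial RNA polymerase, had values of 3434, 3718 and 3948 in Control and of 923, 864 and 898 in DCC-2036. The groups lay far apart, and the DCC-2036 libraries were close to each other. The fall was −2.04 ± 0.10 (log2 fold change ± SE, adjusted p = 0.000186), rank 31 by p among the 12725 genes. MRPL10, which anchors the MRPL12 copies, was level at −0.03 ± 0.10 (adjusted p = 0.806), and MRPL11 at the stalk base was at 0.12 ± 0.10 (adjusted p = 0.333). The sign of MRPL10 turned with scaling by the median of ratios, and that of MRPL11 with scaling to equal totals.

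Proteins around the exit of the peptide tunnel moved in opposite directions. MRPL45, which tethers the ribosome to the inner membrane, had 1611, 1812 and 1763 in Control, against 625, 481 and 418 with DCC-2036, a fall of −1.78 ± 0.16 (adjusted p = 0.000455). MRPL44, another protein of this site with the fold of a ribonuclease, had 1045, 1221 and 1167 in Control libraries and 1648, 2002 and 2504 in DCC-2036 libraries, a rise of 0.82 ± 0.17 (adjusted p = 0.00667). Neither pair of groups overlapped. MRPL17, also at the exit, was at 1132, 1278 and 1390 in Control and at 383, 495 and 541 in DCC-2036, all lower (−1.43 ± 0.16, adjusted p = 0.000812). MRPL24 fell by less, with a log2 fold change of −0.57 ± 0.12 (adjusted p = 0.0067). MRPL22, MRPL23 and MRPL47 were not called. Of the 7 members listed for this site 1 rose and 3 fell (all tested genes, 19.2% and 22.7%), and their median was −0.19 against −0.09 for all genes. None was called higher with equal totals (all genes, 13.1%), without any 1 Control library or without DCC-2036 replicate 2 (all genes, 7.39% to 8.41%).

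The 7 members listed here for the central protuberance, the part of the large subunit that faces the head of the small subunit, all had a log2 fold change below 0, as did 53.8% of all tested genes. The median was −0.43, and 2 of the 7 (28.6%) were called lower, a share near the 22.7% of all genes, MRPL48 (−0.88 ± 0.17, adjusted p = 0.00478) and MRPL27 (−0.83 ± 0.14, adjusted p = 0.00319). MRPL48 was at 470, 536 and 537 in Control and at 345, 274 and 231 in DCC-2036. MRPL27 was at 1010, 1206 and 1231 in Control and at 732, 643 and 563 in DCC-2036. In both genes the highest DCC-2036 value was below the lowest Control value. MRPL55 at −0.63 and MRPL46 at −0.43 just missed the limit (adjusted p = 0.0117 and 0.015), and MRPL18, MRPL38 and MRPL40 lay between −0.26 and −0.03. With scaling by the median of ratios 5 of the 7 were below 0, and with equal totals 5 of the 7 were called lower, against 27% of all genes. The calls fell to 1 without Control replicate 1 and to 0 without Control replicate 2 or 3 or DCC-2036 replicate 2. Of all genes 12.1% to 13.6% were called lower in these fits. The site lists are not complete (MRPL58 is also placed at the central protuberance) and were drawn up after the values had been seen.

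MRPL20, a protein of the solvent side that binds the large ribosomal RNA, had the deepest fall after MRPL12. Its values were 1354, 1602 and 1713 in Control, against 472, 398 and 380 with DCC-2036, without overlap (−1.90 ± 0.14, adjusted p = 0.000274). MRPL49 fell from 2476, 2850 and 2888 to 1071, 1045 and 1002 (−1.39 ± 0.11, adjusted p = 0.000287). Its exons overlap those of FAU and SYVN1 on the opposite strand, whose log2 fold changes were 0.50 and −0.63, and the library kit named in the labels does not mark strand.

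Called in opposite directions in the large subunit were also MRPL33 and MRPL32 on one side and MRPL36 on the other. MRPL33 had 350, 418 and 430 in Control libraries and 672, 784 and 947 in DCC-2036 libraries, the steepest rise of the family at 0.99 ± 0.16 (adjusted p = 0.00262), which became 0.48 with the trend on GC content and transcript length taken out, where MRPS5 was highest at 0.94. MRPL32, which is cut by the inner-membrane m-AAA protease before it joins the ribosome, had 659, 793 and 760 in Control, against 1147, 1283 and 1507 with DCC-2036 (0.83 ± 0.14, adjusted p = 0.00319). MRPL36, a zinc-binding protein added late in assembly, went the other way with 533, 555 and 679 in Control libraries and 225, 206 and 201 in DCC-2036 libraries (−1.47 ± 0.13, adjusted p = 0.000393). None of these 3 genes had overlapping groups. MRPL41 rose from 752, 731 and 746 to 1075, 1166 and 1327 (0.67 ± 0.11, adjusted p = 0.00296). The exons of MRPL32 overlap those of PSMA2 on the opposite strand, which was at 0.29.

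MRPL15 and MRPL21 completed the MRPL symbols that rose, at 0.67 ± 0.13 (adjusted p = 0.00583) and 0.62 ± 0.12 (adjusted p = 0.00521). MRPL57 at −0.99 ± 0.20 and MRPL28 at −0.63 ± 0.14 completed those that fell (adjusted p = 0.00651 and 0.0074). MRPL28 overlaps TMEM8A on the same strand, which was at −1.02, so that the reads of the pair may not be separable. MRPL57 had 505, 574 and 859 in DCC-2036 against 1182, 1302 and 1272 in Control, so DCC-2036 replicate 3 stood nearer to Control than the other two. The core proteins MRPL2, MRPL3 and MRPL4, which sit close to the catalytic centre in the large ribosomal RNA, were at −0.47, 0.42 and 0.35 and were not called (adjusted p = 0.0148, 0.017 and 0.0479). MRPL58, a peptidyl-tRNA hydrolase that frees stalled chains and is also built into the ribosome, was at −0.17 ± 0.12 (adjusted p = 0.245).

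**Figure D2:**
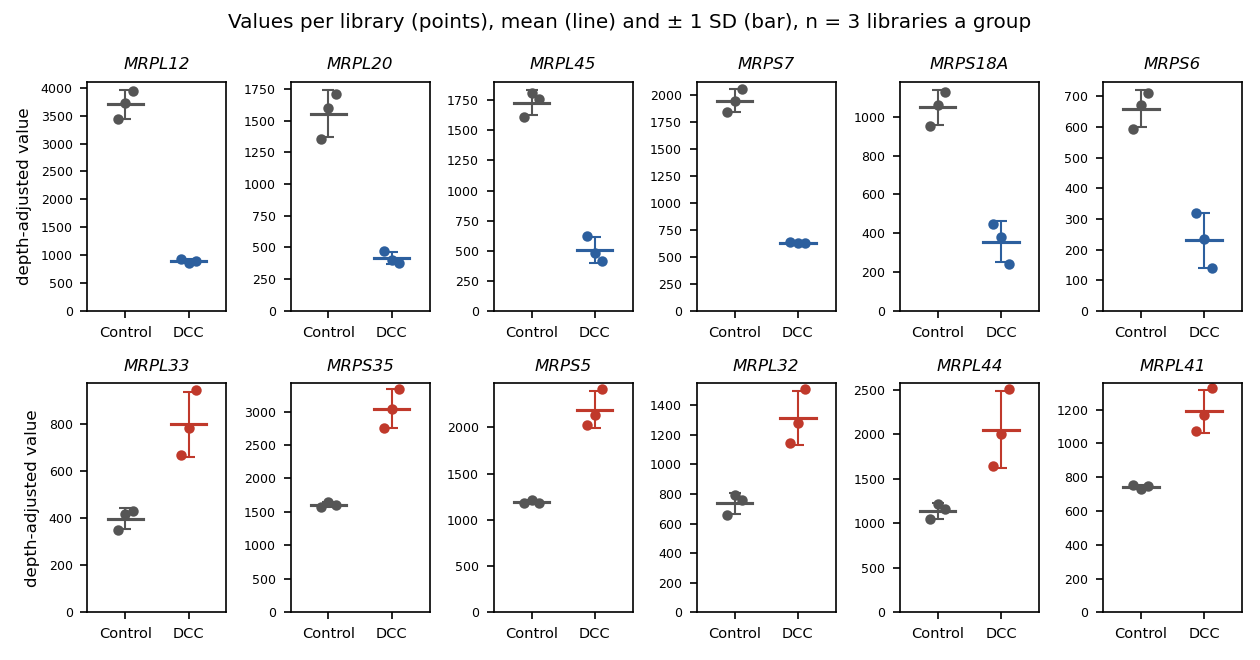
Each panel gives the depth-adjusted values of 1 gene on a linear y axis from 0, with 3 Control and 3 DCC-2036 (DCC) libraries as points, the mean as a line and ± 1 SD as a bar. The upper row holds 6 members that fell and the lower row 6 that rose, and in no panel do the groups overlap.

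In the small subunit, MRPS7, which binds the head of the small ribosomal RNA early in assembly, had the deepest fall. Its values were 1847, 1944 and 2058 in Control, against 636, 633 and 633 with DCC-2036. The DCC-2036 libraries were nearly identical, and the fall was −1.62 ± 0.09 (adjusted p = 0.000193), rank 80 by p. Its exons overlap those of GGA3 and MIF4GD on the opposite strand, which were at −1.05 and 0.27.

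MRPS6, a platform protein, had 595, 672 and 713 in Control libraries and 319, 235 and 140 in DCC-2036 libraries (−1.58 ± 0.29, adjusted p = 0.0043). The DCC-2036 values were widely spread, but all lay below Control. SLC5A3 shares exon sequence with MRPS6 on the same strand and was at −1.33, so that the reads of the pair may not be separable. MRPS33 was at 428, 488 and 482 in Control and at 235, 217 and 266 in DCC-2036 (−0.96 ± 0.12, adjusted p = 0.00112). MRPS16, a conserved protein of the body needed for assembly, was at 1789, 1962 and 2133 and then at 1033, 1147 and 1068 (−0.85 ± 0.11, adjusted p = 0.00125). MRPS16 overlaps DNAJC9, which was at −0.49. MRPS11 and MRPS15 fell by 0.77 ± 0.11 and 0.76 ± 0.11 on the log2 scale (adjusted p = 0.00154 and 0.00166).

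Only 3 MRPS symbols were called higher. MRPS35 had 1570, 1655 and 1604 in Control, against 2760, 3036 and 3337 with DCC-2036 (0.91 ± 0.11, adjusted p = 0.000957). MRPS5, a conserved protein at the entrance of the messenger RNA channel, had 1183, 1220 and 1182 in Control libraries and 2022, 2139 and 2419 in DCC-2036 libraries (0.87 ± 0.11, adjusted p = 0.00104). MRPS9, a protein of the head, had 1150, 1240 and 1194 and then 1563, 1786 and 1878 (0.54 ± 0.11, adjusted p = 0.00624). In all 3 genes every DCC-2036 value was above every Control value. MRPS5 overlaps ZNF514 on the same strand, which was at −2.50. MRPS12 of the decoding centre was at −0.49 ± 0.13 and was not called (adjusted p = 0.0186). MRPS2, MRPS14, MRPS22, MRPS23 and MRPS27 lay between −0.14 and 0.16, none called, and MRPS34 was at 0.33 ± 0.10 (adjusted p = 0.0252). The signs of MRPS14, MRPS23 and MRPS27 turned with scaling to equal totals, and that of MRPS27 also without DCC-2036 replicate 3.

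Some MRPS symbols do not mark parts of the small subunit. MRPS18A and MRPS30 are built into the large subunit, and MRPS36 is a component of the 2-oxoglutarate dehydrogenase complex. MRPS18A had 953, 1062 and 1129 in Control, against 446, 383 and 240 with DCC-2036 (−1.60 ± 0.23, adjusted p = 0.0019). Its relatives differed, with MRPS18C at −0.51 ± 0.12 (adjusted p = 0.0105) and MRPS18B at −0.23 ± 0.11 (adjusted p = 0.0948). The overlapping RSPH9, on the opposite strand of MRPS18A, was low and at 2.75. MRPS30 was at 0.50 ± 0.13 (adjusted p = 0.0153), and MRPS36 was at 230, 241 and 243 and then at 154, 121 and 129 (−0.82 ± 0.12, adjusted p = 0.00193).

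Among the 28 called members, 11 kept their call under all 16 alternative settings, and all 28 kept their direction. These 11 were MRPL12, MRPL17, MRPL20, MRPL36, MRPL45, MRPL49, MRPS7, MRPS16 and MRPS33 among those that fell, and MRPS5 and MRPS35 among those that rose. The other 7 that rose each lost the call without any of the 3 Control libraries or without DCC-2036 replicate 2, and the highest adjusted p over their alternatives was between 0.0123 and 0.0291. Nearest to the limit, MRPL28 (adjusted p = 0.0074) was inside it and MRPS18C, MRPL55 and MRPL43 (adjusted p = 0.0105, 0.0117 and 0.0119) outside.

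The comparison of the subunits gave different answers by measure. Of 49 MRPL symbols 6 rose, 11 fell and 32 were not called, and of 29 MRPS symbols 3 rose, 8 fell and 18 were not called. As shares, 12.2% of MRPL and 10.3% of MRPS symbols rose and 22.4% and 27.6% fell, against 19.2% and 22.7% of all tested genes. Without any 1 Control library or without DCC-2036 replicate 2, 0 MRPL and 2 MRPS symbols were called higher, so the order of these shares turned. Of all genes 7.39% to 8.41% were called higher in these fits. The median log2 fold change was −0.03 for MRPL and −0.14 for MRPS, a difference of 0.10, which was 0.07 without Control replicate 1 or DCC-2036 replicate 2 and 0.16 without Control replicate 3. In single libraries, the MRPL median relative to Control minus that of MRPS was −0.07, 0.04 and 0.02 in Control libraries and 0.06, 0.13 and 0.08 in DCC-2036 libraries. The groups did not overlap on this measure, but the nearest libraries differed by less than the SD of 0.05 between libraries of a group. Summed values pointed the other way. The MRPL sum was 1.70, 1.80 and 1.79 times the MRPS sum in Control and 1.68, 1.70 and 1.66 times in DCC-2036, and these overlapped. As values are not divided by transcript length, only the change of this ratio between groups can be read. With subunits drawn by place in the ribosome, 51 large-subunit genes had a median of −0.03 and 26 small-subunit genes a median of −0.12. Proteins with counterparts in bacteria or other kingdoms had a median of −0.02 (46 genes, 6 higher, 12 lower), and those found in mitochondria alone −0.10 (31 genes, 3 higher, 6 lower).

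The 5 mitoribosomal proteins without an MRP symbol had a median of −0.10. AURKAIP1 of the small subunit fell from 2180, 2463 and 2568 to 1529, 1604 and 1665 (−0.59 ± 0.11, adjusted p = 0.0042), a call that was lost with scaling by the median of ratios, without any 1 Control library and without DCC-2036 replicate 2. DAP3, CHCHD1, PTCD3 and GADD45GIP1 were not called.

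Other ribosomal and mitochondrial genes gave another picture. The members were set beside 86 tested cytosolic ribosomal protein symbols (RPL and RPS) and 39 tested NDUF symbols, most of which are subunits of complex I, the first enzyme of the respiratory chain. Both lists were taken by symbol and hold a few readthrough genes and relatives. The library medians of the cytosolic group relative to Control were −0.13, 0.06 and 0.09 in Control libraries, against 0.14, 0.38 and 0.67 with DCC-2036, so that the DCC-2036 libraries lay far apart. In this group 79 of 86 log2 fold changes were above 0 (91.9%, against 46.2% of all tested genes), with a median of 0.39 and an SD of 0.30. Without DCC-2036 replicate 3 the median was 0.26, with 73 of 86 above 0. Most of them, 76 of 86, were not called. Called higher were 8 (9.3%, against 19.2% of all genes), including RPL22, RPL39 and RPL5 (0.79, 0.88 and 0.77), and called lower were 2 (2.33%, against 22.7%), RPL7L1 and RPS19BP1, which are not part of the mature ribosome. The NDUF symbols had a median of 0.28, with 13 higher (33.3%) and 3 lower (7.69%). They include NDUFA4, a subunit of complex IV, NDUFA4L2, which is no complex I subunit and was at 3.40, and the readthrough NDUFC2-KCTD14. Without these 3, the median of 36 was 0.22, with 11 higher and 3 lower. With the libraries scaled to equal totals, the calls became 4 higher and 4 lower in the cytosolic group, with 70 of 86 above 0. They became 9 and 5 among the NDUF symbols, where 13.1% and 27% of all genes were called. Without DCC-2036 replicate 1, 34 cytosolic symbols were called higher, where 21.3% of all genes were. Without any 1 Control library or DCC-2036 replicate 2 none was, and the NDUF symbols called higher ranged from 2 to 6. Of all genes 7.39% to 8.41% were called higher in these last fits. With equal totals the cytosolic group stood at 0.19, the NDUF symbols at 0.08 and the mitoribosomal group at −0.28. Relative to the median of all genes, the shifts were 0.48, 0.37 and 0.01 in both scalings. These are counts and medians, and the differences between the groups were not tested.

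**Figure D3:**
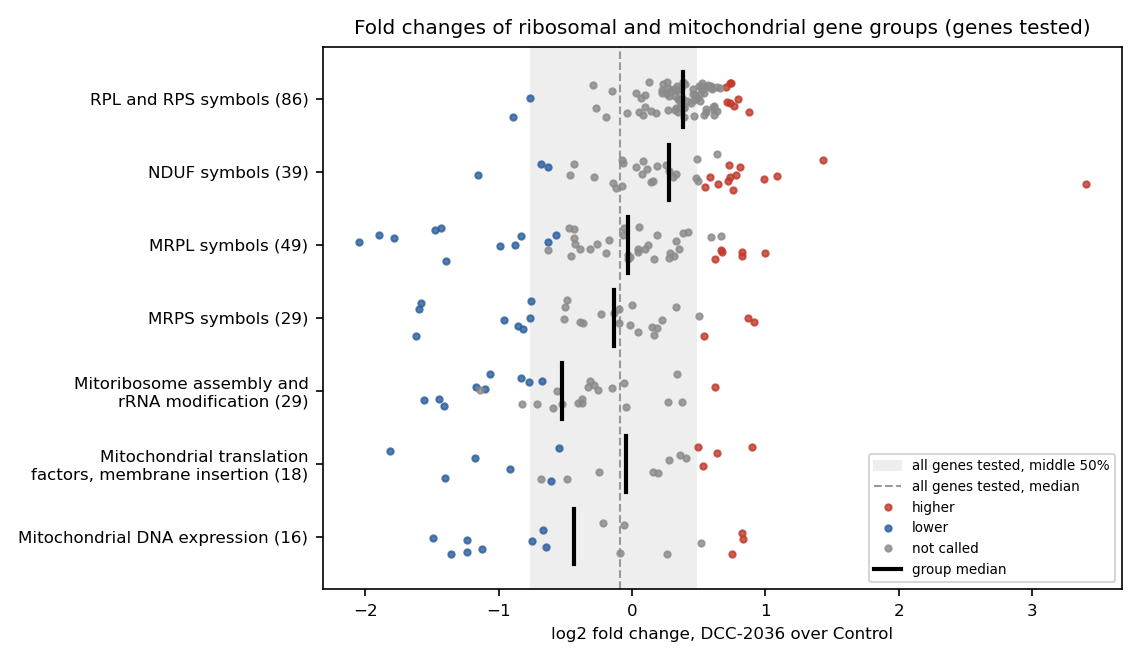
Each point is the log2 fold change (x axis) of 1 tested gene in the groups named on the y axis, with the number of genes in brackets, colours for the call at an adjusted p under 0.01, black bars for group medians and a grey band for the middle 50% of all tested genes. RPL and RPS symbols lie around a median of 0.39, whereas MRPL and MRPS symbols spread from −2.04 to 0.99.

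Genes for building the mitochondrial ribosome were looked at next. Of 29 assembly factors and ribosomal RNA modifying enzymes 9 fell (31.0%, against 22.7% of all tested genes) and 1 rose (3.45%, against 19.2%). Their median was −0.52 against −0.09 for all genes, with 25 of 29 below 0 (86.2%, against 53.8%). The library medians relative to Control differed between DCC-2036 replicates 1, 2 and 3, at −0.29, −0.51 and −0.73. Without DCC-2036 replicate 3 the median log2 fold change was −0.40. TRUB2 and RPUSD3, pseudouridine synthases, fell to log2 fold changes of −1.56 ± 0.15 and −1.45 ± 0.15 (adjusted p = 0.000465 and 0.000641). YBEY, an RNA nuclease, was at 204, 289 and 224 in Control and at 90.2, 93.0 and 82.3 in DCC-2036 (−1.41 ± 0.15). The RNA methyltransferases MRM3, TRMT2B and METTL15 followed at −1.17, −1.10 and −1.07. METTL17, a small-subunit assembly factor, was the 1 that rose, from 770, 778 and 737 to 1052, 1109 and 1391 (0.63 ± 0.13, adjusted p = 0.00715). Called higher were 0 with equal totals (all genes, 13.1%) and 2 with the median of ratios (all genes, 21.3%). None was called higher without any 1 Control library or DCC-2036 replicate 2 (all genes, 7.39% to 8.41%). Called lower were 14 without DCC-2036 replicate 1 (all genes, 28%). There were 6 without Control replicate 2 or DCC-2036 replicate 2 (all genes, 12.1% and 13.6%).

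Of 18 translation factors and membrane insertion genes 4 rose (22.2%, near the 19.2% of all tested genes) and 6 fell (33.3%, against 22.7%). The elongation factors GFM1 and TSFM rose by 0.90 ± 0.13 and 0.53 ± 0.10, GFM2, which acts in ribosome recycling, by 0.49 ± 0.09, and LRPPRC, which stabilises mitochondrial messenger RNAs, by 0.63 ± 0.10. OXA1L, the insertase that receives nascent chains at the tunnel exit beside MRPL45, fell from 1928, 1935 and 2083 to 821, 782 and 658 (−1.40 ± 0.12, adjusted p = 0.000376). Release and rescue factors C12orf65 and MTRF1 fell to −1.82 ± 0.34 and −1.18 ± 0.22, the peptide deformylase PDF to −0.92 ± 0.12, MTFMT, which makes the initiator formyl-methionyl tRNA, to −0.60 ± 0.12, and the translational activator TACO1 to −0.55 ± 0.11. TUFM, the elongation factor that delivers aminoacyl-tRNA, was not called at 0.19 ± 0.11. The calls of this list were 2 higher and 7 lower with equal totals (all genes, 13.1% and 27%). With the median of ratios they were 4 and 4 (all genes, 21.3% and 20.7%). Without any 1 Control library or DCC-2036 replicate 2 they were 0 or 1 higher and 2 or 3 lower. Of all genes 7.39% to 8.41% were called higher and 12.1% to 13.6% lower in these last fits.

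In the expression of mitochondrial DNA itself, 3 of 16 genes rose (18.8%, near the 19.2% of all tested genes) and 8 fell (50%, against 22.7%). SUPV3L1, TFB2M and MTPAP, which act in RNA decay, transcription start and polyadenylation, rose by 0.83, 0.83 and 0.75. The transfer RNA processing proteins KIAA0391 and TRMT10C fell to −1.49 ± 0.25 and −1.23 ± 0.11, and the replication genes POLG2, TWNK and POLG to −1.36, −1.23 and −0.75. MTERF1 was also called lower, at −1.13 ± 0.17 (adjusted p = 0.00208). POLRMT, the RNA polymerase that MRPL12 binds, was at −0.22 ± 0.16 and was not called (adjusted p = 0.263). In this list 1 gene was called higher with equal totals (all genes, 13.1%) and 2 without DCC-2036 replicate 3 (all genes, 19.8%). Without any 1 Control library or DCC-2036 replicate 2 there were 0 higher and 3 or 4 lower. The shares of all genes were then 7.39% to 8.41% and 12.1% to 13.6%.

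Transcripts of 1 member mostly moved together. The table holds 147 transcripts of the 78 members, and 34 members have more than 1. Their log2 fold changes differed by less than 0.2 in 29 of the 34, with a median range of 0.05. Transcripts of 1 gene share reads, so they are not independent. In MRPL35 the transcript that represents the gene here was level at −0.02 ± 0.09. The other, at 511, 492 and 489 in Control, against 633, 739 and 701 with DCC-2036, was called higher (0.47 ± 0.10, adjusted p = 0.0075). The 2 transcripts of MRPL33 both rose, by 0.99 and 1.16. In MRPL52, 6 transcripts lay between −0.47 and −0.40 and the seventh at 0.07. No member had transcripts called in opposite directions. Counted by transcript, 16 rose and 33 fell, against 19.7% and 22.4% of all 32323 transcripts tested.

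The start regions of the members had letters in common. RefSeq windows of 300 bases, from 250 before to 50 after the annotated start, were found for 69 members and searched on both strands. The core recognised by ETS factors such as GABP (CCGGAAG) was in 29 of 69 windows, 42.0%, against 19.2% of 9917 windows of tested genes and 10.7% of all 27305. The YY1 element (AAGATGGC), which contains ATG, was in 20 of 69, 28.99%, against 5.39% and 3.03%. The NRF1 element (GCGCA, any base, then GCGC) was in 11.6%, against 11.6% and 6.28%. The GC box of SP1 (GGGGCGGGG) was in 24.6%, against 28.8% and 16.0%, the CCAAT box (CCAAT) in 28.99%, against 36.3% and 35.7%, and the E-box (CACGTG) in 8.7%, against 10.1% and 7.43%. The element shared by C/EBP and ATF factors (TGATGNAA) was in 1 of 69, 1.45%, against 1.55% and 3.67%. No chance level was computed for these shares.

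Within the family, the ETS core was in 7 of 18 windows of members that fell, 1 of 7 that rose and 21 of 44 not called. The YY1 element was in 5, 1 and 14 of these, and the NRF1 element in 5, 1 and 2. The GC box was in 3 that fell, 4 that rose and 10 not called, the CCAAT box in 3, 4 and 13, the E-box in 3, 0 and 3, and the C/EBP and ATF element in 0, 0 and 1. Of the 7 that rose, MRPL32, MRPL33, MRPL41, MRPL44 and MRPS9 lost the call without any 1 Control library or DCC-2036 replicate 2. MRPS5 and MRPS35 kept it and had no match to any element. A match describes the letters only. The windows below are those of MRPL12, MRPL20, MRPS7 and MRPL36, among the deepest falls, and of MRPS35 and MRPL33, the steepest rises, and they show that members with and without these letters stand on both sides. Capitals mark every match to a listed element, and no 2 matches overlap in these windows. Sequences are RefSeq, GRCh38.p14, 5′ to 3′ on the strand of the gene.
MRPL12 (fell; chr17:81703117-81703416, plus strand; no match): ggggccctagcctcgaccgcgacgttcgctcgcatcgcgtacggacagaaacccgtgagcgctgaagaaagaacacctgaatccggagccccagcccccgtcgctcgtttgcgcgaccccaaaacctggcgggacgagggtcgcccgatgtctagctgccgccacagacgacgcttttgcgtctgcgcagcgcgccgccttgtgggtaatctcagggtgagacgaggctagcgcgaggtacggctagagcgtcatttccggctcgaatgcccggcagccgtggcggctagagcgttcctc
MRPL20 (fell; chr1:1407244-1407543, minus strand; ETS core at 207 and 230, YY1 element at 266 of the window): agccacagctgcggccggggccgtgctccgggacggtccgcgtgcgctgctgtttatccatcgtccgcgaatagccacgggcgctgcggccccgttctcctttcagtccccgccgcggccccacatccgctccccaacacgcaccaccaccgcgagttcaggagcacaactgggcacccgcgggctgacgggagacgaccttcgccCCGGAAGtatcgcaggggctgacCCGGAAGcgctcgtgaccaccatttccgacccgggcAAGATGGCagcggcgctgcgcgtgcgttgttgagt
MRPS7 (fell; chr17:75261629-75261928, plus strand; GC box at 18, YY1 element at 270): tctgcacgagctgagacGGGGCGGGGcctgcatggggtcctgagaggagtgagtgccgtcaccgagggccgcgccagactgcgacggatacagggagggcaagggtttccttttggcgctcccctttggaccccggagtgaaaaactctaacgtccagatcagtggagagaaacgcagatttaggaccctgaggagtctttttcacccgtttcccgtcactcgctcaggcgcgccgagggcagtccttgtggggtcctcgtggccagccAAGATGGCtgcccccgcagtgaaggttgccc
MRPL36 (fell; chr5:1799788-1800087, minus strand; NRF1 element at 141, E-box at 195, YY1 element at 216): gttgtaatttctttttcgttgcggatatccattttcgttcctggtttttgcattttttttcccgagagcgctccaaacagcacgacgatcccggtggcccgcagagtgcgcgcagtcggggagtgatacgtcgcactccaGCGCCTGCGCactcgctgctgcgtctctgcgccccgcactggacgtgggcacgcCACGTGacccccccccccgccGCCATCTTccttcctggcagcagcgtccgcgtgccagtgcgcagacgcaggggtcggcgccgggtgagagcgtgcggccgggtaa
MRPS35 (rose; chr12:27710582-27710881, plus strand; no match): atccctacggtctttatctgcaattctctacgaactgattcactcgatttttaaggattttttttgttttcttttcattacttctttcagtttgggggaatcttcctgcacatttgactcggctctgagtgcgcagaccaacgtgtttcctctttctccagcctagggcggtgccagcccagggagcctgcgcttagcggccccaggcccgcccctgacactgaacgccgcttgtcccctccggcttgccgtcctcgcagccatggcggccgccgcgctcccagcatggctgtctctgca
MRPL33 (rose; chr2:27771469-27771768, plus strand; ETS core at 243): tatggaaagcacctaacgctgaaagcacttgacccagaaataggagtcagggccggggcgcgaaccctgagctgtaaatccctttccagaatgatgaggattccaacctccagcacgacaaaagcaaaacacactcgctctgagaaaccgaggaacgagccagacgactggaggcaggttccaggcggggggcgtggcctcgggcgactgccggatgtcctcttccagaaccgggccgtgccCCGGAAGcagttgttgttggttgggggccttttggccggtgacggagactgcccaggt

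Of the genes for factors that bind these elements or act with them, NRF1 was at −0.08 ± 0.17, GABPA at 0.60 ± 0.23, GABPB1 at 0.02 ± 0.10 and YY1 at 0.58 ± 0.20, none called (adjusted p = 0.683, 0.0612, 0.881 and 0.0447). MYC had 4246, 5601 and 8283 in DCC-2036 against 4483, 4499 and 4813 in Control and was not called. ESRRA, an orphan nuclear receptor that drives mitochondrial genes, fell from 1312, 1399 and 1485 to 617, 537 and 481 (−1.36 ± 0.13, adjusted p = 0.000457), and its coactivator PPARGC1B rose from 440, 383 and 434 to 795, 873 and 867 (1.01 ± 0.11, adjusted p = 0.00066). PPARGC1A, a related coactivator, did not reach the filter, with at most 1.03 in any library.

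Many members start near a neighbour on the opposite strand, either running apart from it or with overlapping starts. By GENCODE 29, 28 members had a tested protein-coding gene on the opposite strand with its start within 1000 bp, in 27 distinct pairs. The signs of the log2 fold change matched in 14 of the 27 (51.9%), against 54.5% of the 1005 such pairs among all tested genes. Both genes were called in 4 pairs (14.8%, against 21.2%), and in 3 of these both fell (11.1%, against 9.95%). These were MRPL27 with EME1, a DNA repair nuclease subunit (−0.83 and −1.47, starts 6 bp apart), MRPL57 with SKA3 of the kinetochore (−0.99 and −1.99, 43 bp apart) and MRPS7 with GGA3 (−1.62 and −1.05, 689 bp apart). MRPL27 and MRPL57 run apart from their neighbours, whereas MRPS7 and GGA3 have overlapping starts. Without Control replicate 2 or 3 or DCC-2036 replicate 2 both MRPL27 and MRPL57 lost the call. In the fourth pair, MRPL36 fell by 1.47 on the log2 scale while NDUFS6, a complex I subunit that starts 34 bp away, rose by 0.81 ± 0.12 (adjusted p = 0.00187). The RefSeq starts of this pair lie farther apart, and the MRPL36 window printed above does not reach that of NDUFS6. MRPL46 and MRPS11 are themselves such a pair, 34 bp apart, at −0.43 and −0.77. Where starts overlap, unstranded reads near them cannot be assigned to 1 gene.

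**Figure D4:**
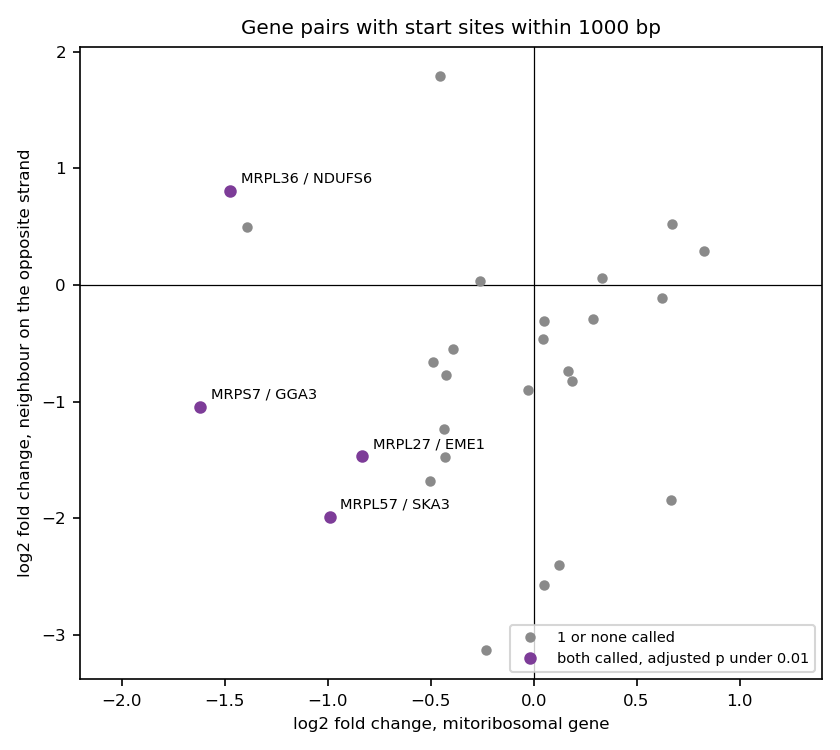
The log2 fold change of the mitoribosomal gene (x axis) is set against that of the neighbour on the opposite strand (y axis) for 27 pairs with starts within 1000 bp, with purple points where both genes were called. MRPL36 with NDUFS6 lies in the upper left, apart from the 3 called pairs in the lower left.

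By chromosome, members on chromosome 2 and chromosome 17 parted. Of 8 members on chromosome 2, 4 rose (MRPL33, MRPL44, MRPS5 and MRPS9) and 0 fell, where 21.2% of all tested genes of that chromosome were called higher and 21.9% lower. Of 8 on chromosome 17, 0 rose and 4 fell (MRPL12, MRPL27, MRPL45 and MRPS7), where the shares were 15.6% and 26.5%. Chromosome 1 also held 8, with 0 higher and 3 lower, where the shares were 21.1% and 22.2%. MRPL33, MRPL44 and MRPS9 each lost the call without any 1 Control library or without DCC-2036 replicate 2, and MRPS5 kept it. Of all genes 7.39% to 8.41% were called higher in these fits. On chromosome 17, MRPL27 lost the call without Control replicate 2 or 3 or DCC-2036 replicate 2. On chromosome 1, MRPL24 lost it without any 1 Control library, and MRPS15 without Control replicate 3. The chromosomes were picked after the values had been seen, and no test was made.

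Transcripts of members that rose had a median GC content of 45.6% and those that fell 50.7%, against 50.4% for all tested genes. Median lengths were 1262 and 1286 bases, against 1369.5 for all members and 3032 for all tested genes. Across the 78 members Spearman's rho of GC content with the log2 fold change was −0.23, as a description over genes that share libraries, and across all tested genes with a value −0.14. With the trend on GC content and length taken out, the medians of the members that rose and fell were 0.65 and −1.20, MRPL33 moved from 0.99 to 0.48, and MRPL21 from 0.62 to 0.35. A bulk value cannot tell fewer cells of a kind from less RNA per cell.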

How the data were processed

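RNA of 6 LoVo libraries was sequenced, 3 Control and 3 DCC-2036, grouped by the sample titles. The authors deposited 1 depth-adjusted signal per RefSeq transcript and library. The steps from reads to signal are not given in the sources used here, and depth per library is unknown. The log2 fold change, p-value and q-value columns that the authors deposited were not used.

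Each symbol was represented by its transcript of highest mean value across all 6 libraries, without regard to the groups. Of 19223 symbols, 12725 reached 10 or more in 3 or more libraries and entered the test, made with limma 3.58.1 in R 4.3.3 on log2(value + 1), two-sided and without covariates, and called at an adjusted p under 0.01. Fold changes are on that scale. A count test was planned only for the case of counts. An exact permutation test of 3 against 3 libraries cannot go below a p of 0.1 and was not used. The code was tested on simulated data.

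Members and lists were chosen with earlier results of these data known. Named are, per subunit and direction, up to 6 called members with the largest absolute log2 fold change, members with known roles, the other called members, and MRPL35, MRPL43, MRPL46, MRPL52 and MRPL55, picked after their values were seen. Genes of the pathway lists are named with values where called, up to 6 per list and direction, and a few uncalled ones were picked after their values were seen.

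Length, GC content and neighbours came from GENCODE 29 (all 78 members, 96.6% of tested genes), motif windows from RefSeq with Python 3.11.15. The build of the authors' processing is not given in the sources used here, so no coordinates are printed from their table.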

Additional observations from a re-analysis of the deposited data

How the results depend on the processing

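Depth is unknown and 3 libraries a group limit precision, reads shared between overlapping genes or with the many processed pseudogene copies of this family cannot be separated, and causes of the changes below were not tested. All 28 called members kept their direction under 16 alternatives, and 17 lost the call in at least 1. Of 21 members not called that were run under the same alternatives, 10 were called in at least 1. MRPL18, MRPL22, MRPL23, MRPL38, MRPL40 and MRPL47 were not among them.

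The main counts were 9 higher and 19 lower (MRPL 6 and 11, MRPS 3 and 8). With libraries scaled to equal totals there were 5 higher and 32 lower (MRPL 3 and 20; all genes 13.1% and 27%), and with no filter on low values 5 higher (MRPL 3 and 7; all genes 10.5% and 12.9%). Every transcript as its own row gave 16 higher and 33 lower (MRPL 18 lower, MRPS 7 higher and 15 lower), where the number of rows is larger by construction. An adjusted p limit of 0.05 gave 18 and 32, against 28.5% and 33.7% of all genes (MRPL 13 and 19, MRPS 5 and 13), a log2 fold change of 1 or more in size gave 0 and 9, against 7.42% and 15.2% of all genes (MRPL 0 and 6, MRPS 0 and 3), and limma with a trend 5 MRPS higher, where 22.6% of all genes were.

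Leaving out 1 library gave 2 to 11 higher and 10 to 21 lower, where 7.39% to 21.3% and 12.1% to 28% of all genes were called, for MRPL 0 to 7 and 6 to 11, and for MRPS 2 to 4 and 4 to 10. The MRPL median then ranged from −0.0863 without Control replicate 1 to −0.0107 without Control replicate 3 (−0.0118 without Control replicate 2, −0.0581 and −0.0601 without DCC-2036 replicates 2 and 3), within the spread between libraries. The MRPS median ranged from −0.171 to −0.127 and the difference of medians from 0.0673 to 0.161, where the highest value was without Control replicate 3.

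The MRPL median of −0.03 became 0.0489 with scaling by the median of ratios, −0.231 with equal totals, −0.175 with every transcript and −0.191 as a mean. The MRPS median of −0.14 became −0.0547, −0.334, −0.341 and −0.271. The difference of medians of 0.10 became 0.166 with every transcript. Of the 21 uncalled members run under the alternatives, 6 changed sign. MRPL10 turned with the median of ratios (0.0527). With equal totals MRPL11 (−0.0746), MRPS14 (−0.0506), MRPS23 (−0.036) and MRPS27 (−0.15) turned. MRPS27 also turned when 1 library was left out (−0.019 to 0.126). MRPL35 turned with the median of ratios (0.0651), upper quartiles (0.00387), summed transcripts (0.172) and 1 library left out (−0.0404 to 0.0132). Members outside these 21 can also turn, as 2 of the 7 listed for the central protuberance were above 0 with the median of ratios.

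With the replicate number as a replicate block, 4 members were higher and 12 lower (MRPL 2 and 6), against 9.45% and 15% of all genes. Over all tested genes, samples with the same number showed little joint deviation (correlations 0.08, −0.04 and −0.003). Column totals, however, rose with the replicate number in both groups. Whether the numbers pair the libraries is therefore not settled.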
